A study of Arabidopsis thaliana with 251 samples.

Results

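Pol II Ser5 ChIP–seq regions of ELF7-ZF were compared with those of *fwa* in 2 data sets, SET8 and SET9, each of which holds 1 library of either line. A region was taken as new when it lay in both ELF7-ZF libraries and overlapped, by as little as 1 bp, no *fwa* region of the same SET. A region was taken as lost when it lay in both *fwa* libraries and overlapped no ELF7-ZF region of the same SET. This gave 277 new regions, which are 1.71% of the 16206 regions of ELF7-ZF replicate 1, and 171 lost regions, which are 1.45% of the 11758 regions of *fwa* in SET8. The 448 regions come from 65675 regions in the 4 lists and 278832 in all 18 Pol II lists of the series. A further 6791 regions of ELF7-ZF replicate 1 overlapped *fwa* in SET8 and a replicate 2 region that overlapped *fwa* in SET9. These kept regions served as the background. The new and lost counts follow from the definition and carry no test.

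Read depth is unknown, and the lists differed in length, with 16206 and 18206 regions in ELF7-ZF and 11758 and 19505 in *fwa* in SET8 and SET9. In SET8, where *fwa* had the shorter list, 8131 regions of ELF7-ZF (50.2%) overlapped none of *fwa*, and in SET9 1856 (10.2%). Lost regions within a single SET were 1724 (14.7%) and 2879 (14.8%). A region that is not listed was below the threshold of the peak caller, which does not show that Pol II was absent. With the lists cut to equal length, 262 regions were new and 236 lost.

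The series is a screen in *Arabidopsis* in which effector proteins were fused to an artificial zinc finger (ZF) that binds the promoter of *FWA*. All lines of the comparison were of the Columbia-0 ecotype and carried the *fwa* epiallele, in which *FWA* lacks DNA methylation, is expressed and delays flowering. ELF7-ZF plants were T2 transgenic plants picked for early flowering, whereas the *fwa* plants had no transgene, so the fusion and the flowering state of the plants cannot be told apart. Leaves of both lines were used, and replicate 1 was of SET8 and replicate 2 of SET9. The labels give an anti-Pol II antibody and the methods an antibody against the Ser5 phosphorylated form. The methods describe a vector with the *UBQ10* promoter and the ZF before the effector and another with the effector's own promoter and the ZF after it, and do not say which one gave the ELF7-ZF plants of these libraries or how many plants were behind each. Candidate sites of the ZF were taken from 1 unreplicated FLAG ChIP–seq list of floral tissue, labelled TRB1-ZF and read here as the FLAG-ZF profile of the methods, which do not use that name, and 6915 of its summits had a fold of at least 4. HD2A-ZF, a fusion of a histone deacetylase, was compared with the same 2 *fwa* libraries, and EYFP-ZF, a fusion without an effector, with its own *fwa* libraries of SET14. The other Pol II lists were of the fusion CPL2-ZF and of *fwa* in SET10 and SET11, and of Col-0 wild type and the *elf7* mutant in SET12 and SET13. Col-0 and *elf7* carried no ZF fusion and were not of the *fwa* background. By the study, HD2A-ZF and CPL2-ZF also restored early flowering, so they share that state with ELF7-ZF.

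ELF7 is the *Arabidopsis* homologue of the PAF1 subunit of the PAF1 complex, which travels with RNA polymerase II (Pol II) and assists its elongation through chromatin. Ser5 of the repeats in the tail of the largest Pol II subunit is phosphorylated around initiation, and Ser5-phosphorylated Pol II is known for high levels near the starts of genes. Mutants of the complex flower early, since genes that repress flowering such as *FLC* depend on it.

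Some of the FLAG summits held a short sequence that is also at the FLAG summit of *FWA*. The 8-base word whose share of windows within 50 bp of the 6915 FLAG summits rose most above that of windows 500 bp to the side was AAGATGTA, read on both strands. It was in 10.1% of the windows at the summits, in 0.557% of the windows to the side and in 0.419% of equal windows at the starts of 27432 protein-coding genes. CATACATC had a higher ratio of both shares, at 6.32% against 0.304%. AACCCTAA, a word of the telomere repeat, to which TRB1 binds, was in 6.81% against 1.15%, and sites of TRB1 and of the ZF cannot be told apart in this list. The share of windows with AAGATGTA was 7.71% at summits of 4 to 6-fold, 11.3% at 6 to 8-fold and 17.8% at over 8-fold. The word was in the window of 5 of the 32 FLAG summits that lay within 250 bp of a new Pol II region (15.6%). Those 5 sites are shown, each under the gene nearest to its Pol II region, below the sites at the promoter and the end of *FWA*, as 30 bases 5′ to 3′ on the strand that carries the word. The capitals mark the word, and the bases are of the RefSeq TAIR10.1 assembly.
FWA promoter, chr4:13038292-13038321, minus strand: ttctcgacggaAAGATGTAtgggcttcgat
FWA end, chr4:13042559-13042588, plus strand: cgggtggagaaAAGATGTActgcaacaccg
CINV2, chr4:6020640-6020669, minus strand: taccatccgaaAAGATGTAtgggctttgtc
RFC1, chr5:7281161-7281190, plus strand: ataagttcacaAAGATGTAtagtacctgag
TPS11, chr2:8110164-8110193, plus strand: taaggatgttcAAGATGTAgagaaacagat
PPR336, chr1:22866000-22866029, minus strand: ttgagatgcctAAGATGTAtggaattgaac
AT1G11630, chr1:3913848-3913877, minus strand: tcgaaatgccgAAGATGTAtggcattgaac
The *CINV2* site shares an unbroken run of 16 bases around and including the word with the *FWA* promoter site, and 21 of the 30 bases shown. The run is 11 bases at *PPR336* and AT1G11630, 10 at *RFC1*, 9 at the end of *FWA* and 8, the word alone, at *TPS11*. A match describes the sequence and was not tested as a binding site.

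*FWA*, the gene the ZF was designed for, lies at chr4:13038360-13042464 on the plus strand and held 2 FLAG summits of at least 4-fold, one at -68 bp from the gene start (fold 11.7) and one at 4204 bp (fold 6.67), past the annotated end. ELF7-ZF replicate 1 had 1 Pol II region at the gene, from -219 to 95 bp of the gene start, with the summit at -67 bp, a fold of 9.0 and a width of 315 bp. ELF7-ZF replicate 2 had the same narrow region, from -188 to 76 bp, with the summit at -66 bp, a fold of 7.23 and a width of 265 bp, and a second region of 3.12-fold at 4160 to 4403 bp. Both promoter summits of ELF7-ZF thus lay within 2 bp of the FLAG summit.

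In *fwa* of SET8 the Pol II regions lay in the gene and at its end, at 1458 to 2156 bp (fold 2.56), 2278 to 2470 bp (2.82), 2822 to 2958 bp (2.50) and 4036 to 4316 bp (3.69), and none touched the promoter. In *fwa* of SET9 one region ran from -96 to 350 bp, with its summit at 68 bp and a fold of 6.53, and another from 3988 to 4479 bp with a fold of 7.34. The ELF7-ZF promoter region therefore counted as new in SET8 alone and is not among the 277. Between 500 bp and 3500 bp inside the gene neither ELF7-ZF library had a region, and *fwa* had regions there in SET8 but not in SET9. The other *fwa* libraries had summits at 44 bp (fold 3.56) and 217 bp (fold 3.45) in SET10 and SET11, with further regions in the gene. In SET14 1 region covered the whole gene in both *fwa* libraries and both EYFP-ZF libraries, with its summit near the gene end. HD2A-ZF had summits at -89 bp (fold 2.46) and -47 bp (fold 4.71), in regions 134 and 250 bp wide. CPL2-ZF, a fusion of a Pol II tail phosphatase, had them at -35 bp (fold 3.18) and -47 bp (fold 5.02), in regions 213 and 214 bp wide. Like ELF7-ZF, neither line had a region between 500 bp and 3500 bp inside the gene. By presence in the lists, a narrow promoter region without Pol II regions in the gene was thus not particular to ELF7-ZF. The folds of that region were higher in ELF7-ZF, at 9.0 and 7.23, than in HD2A-ZF or CPL2-ZF. From its signal tracks the study described a prominent Pol II peak at the ZF site in ELF7-ZF and none in HD2A-ZF.

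**Figure D1:**
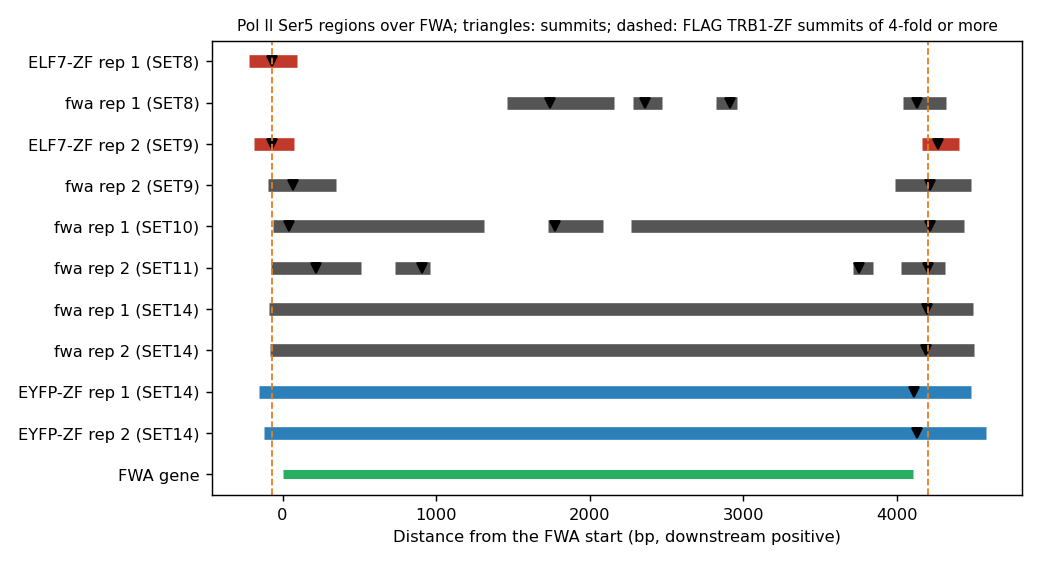
Pol II Ser5 regions over *FWA* in 10 libraries, by distance in bp from the gene start, with bars for the listed regions, triangles for their summits, dashed lines for the 2 FLAG TRB1-ZF summits and the gene at the bottom. The only region at the promoter of either ELF7-ZF library was 315 or 265 bp wide and centred on the FLAG summit, while the *fwa* regions at the start had their summits 44 to 217 bp inside the gene or covered all of it. HD2A-ZF and CPL2-ZF, which are not drawn, had promoter regions 134 to 250 bp wide with summits at -89 to -35 bp.

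The gene AT3G13470, which encodes a chaperonin subunit and is named in the study, also lies by strong FLAG summits, of 8.16 and 6.97-fold. The study found its RNA lowered in the HD2-ZF lines and in LHP1-ZF, and found no such drop in ELF7-ZF or CPL2-ZF. A region at its start was listed in *fwa* of SET9 (fold 4.51, summit 126 bp after the start) and in neither ELF7-ZF library, and *fwa* of SET8 had none either. It is not among the lost regions, since those had to be listed in both *fwa* libraries, and it was in 3 of the 4 other *fwa* lists. Inside the gene ELF7-ZF had a region at 2582 to 3274 bp (fold 2.91) in replicate 1 and at 2449 to 2906 bp (fold 3.03) in replicate 2, which neither *fwa* library of these SETs listed. It is 1 of the 277 new regions, with its replicate 1 summit also 370 bp past the end of AT3G13480 on the opposite strand. Regions at that place were listed in the 4 other *fwa* libraries and, at 2756 to 3648 bp, in HD2A-ZF of SET8.

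Of the 277 new regions, 32 (11.6%) had their replicate 1 summit within 250 bp of a FLAG summit of at least 4-fold, and 30 (10.8%) their replicate 2 summit, with 28 of them near in both. Among the kept regions the share was 5.55% in replicate 1 and 5.51% in replicate 2. Among the lost regions it was 1.17% in SET8 and 2.92% in SET9, or 2 and 5 regions of 171. Within 100 bp the share was 7.22% of the new regions in both replicates, against 3.03% and 2.71% of the kept regions. Regions new in 1 SET, whatever the other SET held, were near a FLAG summit in 6.60% of 8131 cases in SET8 and 5.06% of 1856 in SET9, against 5.23% and 5.38% of the regions shared with *fwa* in that SET. The share of 11.6% was thus that of regions called in both SETs. The low share of lost regions did not hold at equal list length (6.36% against 5.74% kept) or in SET9 alone (6.84% against 5.38%).

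The same count was made in HD2A-ZF and EYFP-ZF, and was not made in CPL2-ZF. For HD2A-ZF, 3.36% and 2.52% of the 119 regions new in both replicates (0.788% of its regions of replicate 1), 8.33% and 10.9% of the 384 lost regions (3.27% of *fwa* in SET8) and 4.29% and 5.26% of the kept regions were near a FLAG summit. For EYFP-ZF the shares were 3.98% and 4.61% of 477 new regions (3.20%), 3.40% in both replicates of 617 lost regions (4.05%) and 4.10% and 4.27% of the kept regions. New regions lay below lost ones in HD2A-ZF and above them in EYFP-ZF. The HD2A-ZF lists held 15108 and 12753 regions, against 11758 and 19505 in *fwa*. In SET9, where the HD2A-ZF list was the shorter one, 8505 *fwa* regions (43.6%) were lost and 570 HD2A-ZF regions (4.47%) new. Regions of 1 library are not replicates, so these shares carry no test.

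**Figure D2:**
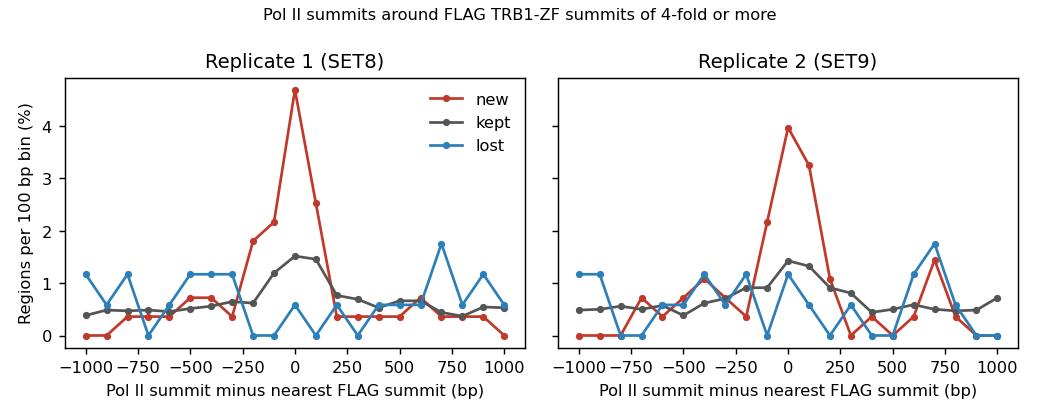
Share of new, kept and lost regions of ELF7-ZF, in percent per bin of 100 bp, by the distance in bp from the nearest FLAG TRB1-ZF summit of at least 4-fold to the Pol II summit, for replicate 1 (left) and replicate 2 (right). The bin on the FLAG summit held 4.69% of the new regions in replicate 1 and 3.97% in replicate 2, and the kept regions had a lower rise at the same place.

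The 32 new regions near FLAG summits were named after 32 different genes. A region took the name of the gene whose start or end its replicate 1 summit was at, else of the gene around it or nearest to it, so that 26 of the 277 new and 14 of the 171 lost regions had that summit inside another gene. Their replicate 1 summits lay in gene bodies at 22, at gene ends at 4, between genes at 4 and at gene starts at 2, where a start spans 500 bp before to 200 bp after the annotated gene start and an end 200 bp before to 500 bp after the gene end. The median fold was 3.27 in replicate 1 and 2.64 in replicate 2, and the median width 350.5 and 201.0 bp. The summits of both replicates lay within 100 bp of the FLAG summit at 15 and within 50 bp at 8.

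The 2 regions that follow lie between the same pair of genes on chromosome 4. The region 516 bp past the end of *CINV2*, a cytosolic invertase gene, had a fold of 6.90 in replicate 1 and 3.63 in replicate 2, with summits 8 bp and 16 bp from an 11.6-fold FLAG summit. The region 380 bp past the end of AT4G09500, annotated as a UDP-glycosyltransferase, had folds of 3.45 and 3.20 and summits 41 bp and 4 bp from an 11.3-fold FLAG summit. Neither place overlapped a region in any of the 14 other Pol II lists, and the nearest *fwa* region was at least 3899 bp away in both SETs.

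*AGL8*, also called *FUL*, is a MADS-box gene with roles in flowering and fruit development. Its new region had folds of 3.57 and 4.05, with summits 455 bp and 240 bp after the gene start and 166 bp and 49 bp from a 7.82-fold FLAG summit, and it was in none of the 4 other *fwa* lists. The next *fwa* regions lay 4128 bp and 3377 bp away. *FUL* was also among the regions where H3K36me2 was listed in both ELF7-ZF libraries and in no *fwa* library.

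The named region closest to its FLAG summit in both replicates lay in *SCAB1*, which encodes an actin-binding protein of guard cells. Its folds were 4.79 and 3.68, with summits 5 bp and 2 bp from a 5.54-fold FLAG summit, 1355 bp and 1358 bp after the gene start. This place was nonetheless listed in 3 of the 4 other *fwa* libraries, and so were AT5G66060 (an oxygenase, folds 4.75 and 3.14), AT1G33050 (uncharacterized, 5.80 and 3.13) and AT5G01980 (a RING/U-box protein, 2.87 and 3.27). The summit at the start of AT5G66060 was inside *AKRP*, and that at the end of AT5G01980 inside AT5G01990, each on the opposite strand.

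*GDH2*, a glutamate dehydrogenase gene, had folds of 3.10 and 2.99, and its place was in 2 of the 4. *NTRB*, a thioredoxin reductase gene, had folds of 2.88 and 3.11, with summits 100 bp and 35 bp from a 5.50-fold FLAG summit. AT5G35450, of the CC-NBS-LRR class of disease resistance genes, had folds of 3.38 and 2.86, with summits 96 bp and 338 bp from a 4.74-fold one. The last 2 were in none of the 14 other Pol II lists. Of the 32 regions, 7 were in none of those 14 lists.

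The sites with the word, which were defined without the Pol II data, were then scored in every library. A Pol II summit lay within 250 bp of 14% of the 700 FLAG summits with the word in ELF7-ZF replicate 1 and of 9.29% in replicate 2. In the 6 *fwa* libraries of SET8, SET9, SET10, SET11 and SET14 the share was 8.26 ± 1.24% (SD, n = 6), between 6.14% and 9.71%, so that replicate 2 lay inside their range. The difference of 3.38 percentage points did not pass the threshold of 0.05 (exact permutation test over libraries, two-sided, p = 0.0714, adjusted p = 0.143 over 4 comparisons, with 0.0357 as the smallest p that 28 regroupings allow). Against the 12 other libraries of the *fwa* background, at 7.90 ± 1.13%, the difference of 3.74 points passed (exact permutation test, p = 0.0220, adjusted p = 0.0440), as did that of 3.93 points at the summits without the word (p = 0.0440, adjusted 0.0440). Within 100 bp, a distance chosen after its values had been seen, the share was 9.14% (64 sites) and 5.57% (39 sites) in ELF7-ZF and 3.19 ± 0.421% (SD, n = 6) in *fwa*.

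At 100 bp both ELF7-ZF libraries lay above each of the 16 other libraries, which ranged from 2.29% to 3.71%, with 3.00% in *fwa* of SET8 and 3.71% in *fwa* of SET9. The exact permutation test gave p = 0.0357 (adjusted 0.143) against the 6 *fwa* libraries and p = 0.0110 (adjusted 0.0440) against the 12 other libraries of the *fwa* background, and each raw p is the smallest its design allows. The 12 include 6 libraries of other fusions. Nothing in the labels says that libraries of a line came from separate plantings, so p-values measure the spread between these libraries. At the 6215 FLAG summits without the word the shares within 100 bp were 7.79% and 7.69% in ELF7-ZF and 5.67 ± 2.00% (SD, n = 6) in *fwa*, with p = 0.286 (exact permutation test, adjusted 0.286). The share was 3.09% in *fwa* of SET8 and 8.72% in *fwa* of SET9, so in SET8 ELF7-ZF was above *fwa* at these summits too. These tests pooled libraries of different SETs and took no account of SET or list length. Against the 12 libraries p was 0.0440 (exact permutation test, adjusted 0.0440).

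**Figure D3:**
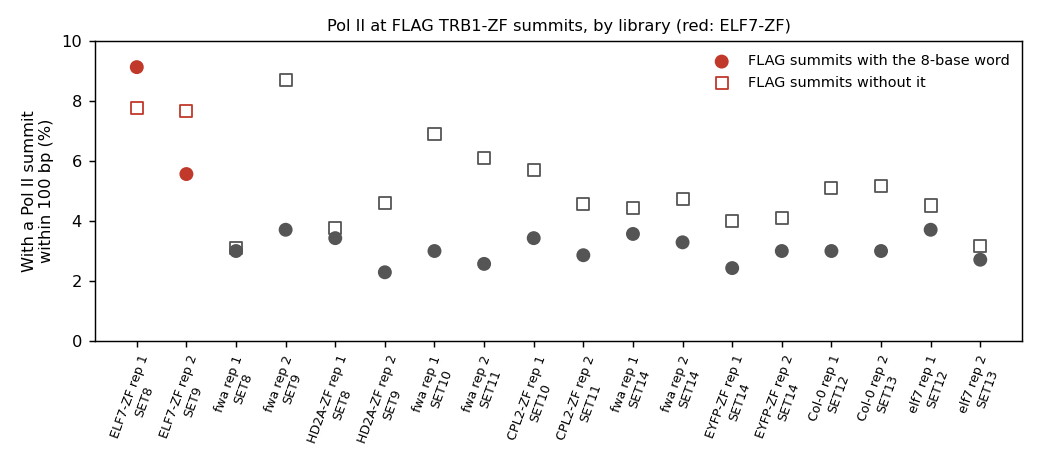
Share of FLAG TRB1-ZF summits of at least 4-fold with a Pol II summit within 100 bp, in percent, in each of the 18 Pol II libraries, for the 700 summits with the 8-base word (filled circles) and the 6215 without it (open squares). With the word, the ELF7-ZF libraries stand at 9.14% and 5.57% and all others between 2.29% and 3.71%; without it, *fwa* of SET9 lies above both.

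At 12 of the 700 sites both ELF7-ZF libraries had a summit within 100 bp, and the count was 3 in *fwa* of SET8 and SET9, 6 in HD2A-ZF and between 5 and 11 in the other line pairs. Both ELF7-ZF and neither *fwa* library of these SETs had one at 6 sites, at *FWA*, *CINV2*, *PPR336* (a pentatricopeptide repeat gene), AT1G07050 (a CCT motif gene), AT4G35785 (an RNA-binding protein) and *UMAMIT1*, and the reverse held at 1. These 6 were named after their values had been seen. Of the other lists, 8 had a summit within 100 bp at *UMAMIT1*, 4 at *FWA* and 3 at AT4G35785, whereas at *CINV2*, *PPR336* and AT1G07050 none had. A *fwa* region lay over the site in both SETs at AT4G35785 and *UMAMIT1* and in SET9 alone at *FWA*. At *CINV2* and *PPR336* neither *fwa* library had a region over the site. Over the AT1G07050 site both *fwa* libraries had a region, with the nearest summits 332 bp and 210 bp from the FLAG summit, while those of ELF7-ZF lay 69 bp and 30 bp from it (folds 3.99 and 3.59).

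Where single regions of ELF7-ZF and *fwa* matched and held a FLAG summit, the Pol II summits could be set side by side. In SET8 the 299 such regions had a median distance of 189.0 bp to the FLAG summit in ELF7-ZF and 296.0 bp in *fwa*, and the ELF7-ZF summit was the closer one at 177 and the farther at 120. In SET9 the 775 such regions had 106.0 and 108.0 bp, with 416 closer and 359 farther. The gap in SET8 was thus not seen in SET9. For HD2A-ZF the medians were 279.0 against 271.0 bp and 110.0 against 113.0 bp.

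New regions were mostly inside genes. Of the 277, 218 (78.7%) had their replicate 1 summit in a gene body, 31 (11.2%) at a gene end, 16 (5.78%) at a gene start and 12 (4.33%) between genes. In replicate 2 the shares were 75.5%, 10.1%, 10.1% and 4.33%, and 239 regions fell in the same class in both. Gene bodies held 76.5% and 71.4% of the new regions of HD2A-ZF and 65.0% and 64.8% of those of EYFP-ZF. A place mostly inside genes was thus not particular to new regions of ELF7-ZF. Of the kept regions, 14.2% had their summit at a start and 26.8% at an end in replicate 1, and 28.4% and 37.4% in replicate 2. SET9 lists held more summits at gene starts than SET8 lists whatever the line, with 34.0% of all ELF7-ZF regions and 37.3% of all *fwa* regions against 10.4% and 12.3% in SET8.

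Of the lost regions, 68.4% lay in a gene body, 17% at an end, 4.68% at a start and 9.94% between genes in SET8, and 58.5%, 17.5%, 13.5% and 10.5% in SET9. The shares of new and lost regions at gene starts were below those of kept regions of the same SET. For lost regions this turned with a single SET, where 14.2% against 12.2% of kept regions were at starts in SET8 and 39.9% against 35.3% in SET9. Inside genes, the median place of the summit was 37.8% and 37.4% of the gene length for new regions in replicates 1 and 2, and 41.9% and 16.8% for kept regions. The new region of replicate 1 and its partner in replicate 2 had summits a median of 108.0 bp apart, and those of lost regions 124.0 bp.

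New and lost regions were narrow and low. The definition favours narrow regions, since a wide region more easily overlaps one of the other list. The median width of new regions was 330.0 bp in replicate 1 and 265.0 bp in replicate 2, that of lost regions 226.0 bp in SET8 and 356.0 bp in SET9, and that of kept regions 994.0 bp and 821.0 bp. The median fold was 2.83 and 2.54 for new regions, 2.66 and 2.93 for lost regions and 4.20 and 7.47 for kept regions. In EYFP-ZF new regions had median widths of 304.0 and 306.0 bp and folds of 2.07 and 1.89, and kept regions 907.0 and 1137 bp and 3.04 and 2.91. In HD2A-ZF the new ones had 522.0 and 294.0 bp and folds of 2.85 in both, and the kept ones 1022 and 498.5 bp and 4.27 and 4.92. Narrow and low new regions were thus not particular to ELF7-ZF. Folds were at least 3 in both lists at 34 new and 24 lost regions, and at least 4 at 9 new and 5 lost regions. Near the limit of the definition, 13 new regions lay within 50 bp of a *fwa* region, the closest at 3 bp, and 105 kept regions shared 50 bp or less with one. At 102 new and 99 lost regions the next region of the other line was over 1000 bp away in both SETs.

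Away from the ZF sites, 167 new regions had no FLAG summit of at least 2-fold within 1000 bp. The highest folds were at AT5G46990, annotated as a pectin methylesterase or invertase inhibitor gene, with 2 new regions at its end. The one at chr5:19067411-19067692 had a fold of 4.71 in replicate 1 and 14.3 in replicate 2, and the one at chr5:19067004-19067226 had 4.04 and 14.6. The nearest *fwa* region was 11515 bp away in SET8 and 3907 bp in SET9, and none of the 14 other Pol II lists had a region there.

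AT1G42980, annotated as a formin-type actin-binding gene, had 2 new regions upstream in replicate 1, with folds of 4.56 and 4.31 and summits at -590 bp and -287 bp from the gene start. They overlapped the same replicate 2 region, 1342 bp wide with a fold of 13.7. None of the 14 other lists had a region there either.

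*CSLG2*, a cellulose synthase-like gene, had folds of 4.19 and 4.80, AT4G15610 3.98 and 4.29, AT2G46560, a WD-40 repeat gene, 3.90 and 4.57, and *TBP1*, which encodes a telomeric DNA binding protein, 3.70 and 3.73. These 4 were in none of the 4 other *fwa* lists but in both CPL2-ZF lists. *RPP1*, a disease resistance gene, had 5.30 and 4.05, and *CYP76C6*, a cytochrome P450 gene, 4.35 and 3.90. The last 2 places were in all 4 other *fwa* lists, so among the 6 *fwa* libraries they lacked a region only in those of SET8 and SET9. Even there the next *fwa* region was 224 bp and 217 bp from that of *RPP1*, and 20435 bp and 435 bp from that of *CYP76C6*. *UGT71B5*, a glucosyltransferase gene named here after its values had been seen, had the highest lower fold of all new regions, 5.25 and 6.59, and was in no other Pol II list. A 2-fold FLAG summit lay 339 bp from its summit.

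Among the lost regions, that at AT1G74675, an uncharacterized gene, had folds of 10.7 in *fwa* of SET8 and 7.21 in SET9 over 1613 and 1880 bp, and the next ELF7-ZF region was 10135 bp and 4104 bp away. The summit in SET8 was 124 bp past the end of AT1G74675 and inside *GASA6*, a gene of the GA-stimulated family on the opposite strand. The place was in all 4 other *fwa* lists. *TGG1*, which encodes a myrosinase of the glucosinolate defence, had folds of 4.25 and 5.14 over 2764 and 2267 bp, and was in all 4 as well. The nearest ELF7-ZF region was 14227 bp and 14013 bp away.

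*EXPA8*, a cell wall expansin gene, had folds of 4.14 and 4.44 in *fwa*, *MLP423*, a major latex protein-like gene, 3.76 and 5.13, and *ASG8* 3.95 and 4.53. AT3G54730, annotated as a transcription repressor, had 4.03 and 6.77, AT3G11580, an AP2/B3-like factor, 3.67 and 4.48, and AT4G19430, uncharacterized, 4.75 and 5.00. AT5G65040, a senescence-associated family gene, had 3.79 and 4.67, and AT1G20480, of the AMP-dependent ligase family, 3.66 and 3.66, with the SET8 summit inside AT1G20470 on the opposite strand. Of these 8, AT1G20480 was in all 4 other *fwa* lists, *MLP423* and AT3G54730 in 3, AT5G65040 in 1 and the rest in 2.

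**Figure D4:**
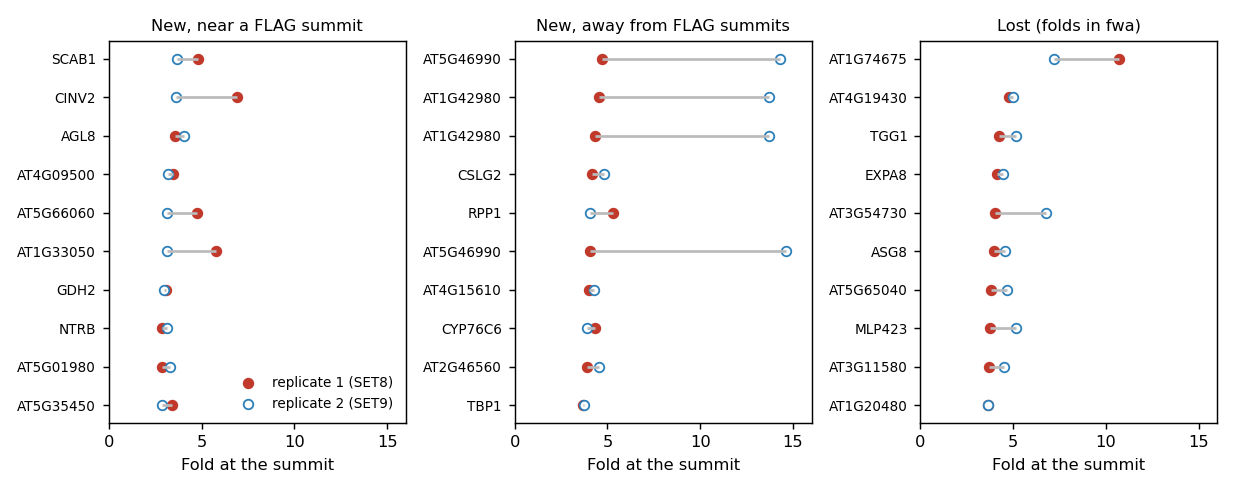
Fold at the Pol II summit over local background, as listed for each library, for the 10 named regions of each kind, with filled circles for replicate 1 (SET8) and open circles for replicate 2 (SET9); the left and middle panels show ELF7-ZF and the right panel *fwa*, and the region of replicate 2 is shared by both entries of AT1G42980. Most pairs lie between 3 and 7-fold, and AT5G46990 and AT1G42980 reach 13.7 to 14.6-fold in replicate 2 only.

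Lists that the definition did not use show how often these places carried Pol II elsewhere. Of the 277 new regions, 108 (39.0%) were in none of the 4 other *fwa* lists and 30 in all 4. Of the 171 lost regions, 10 (5.85%) were in none and 73 in all 4. By list, new regions were found in 46.9%, 19.5%, 39.4% and 44.4% and lost regions in 87.7%, 71.3%, 62.0% and 63.2% of the cases in *fwa* of SET10, SET11 and the 2 libraries of SET14. Kept regions were found in 99.3%, 93.9%, 92.7% and 92.3%. The lost regions were thus more often in other *fwa* lists than the new ones in each of the 4 libraries, and they had been defined by their presence in 2 libraries of that line.

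In CPL2-ZF the order was the reverse, with 57.0% and 37.2% of the new regions and 40.9% and 32.7% of the lost ones. In EYFP-ZF the shares were 44.0% and 45.1% of the new and 60.2% and 67.3% of the lost regions. In Col-0, in which *FWA* is methylated and silent, new regions were found in 39.0% and 50.2% and lost regions in 69.6% and 55.0% of the cases. Over the 10 other lists of the *fwa* background, 9 of the 32 new regions near a FLAG summit (28.1%) and 45 of the other 245 (18.4%) were in none.

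**Figure D5:**
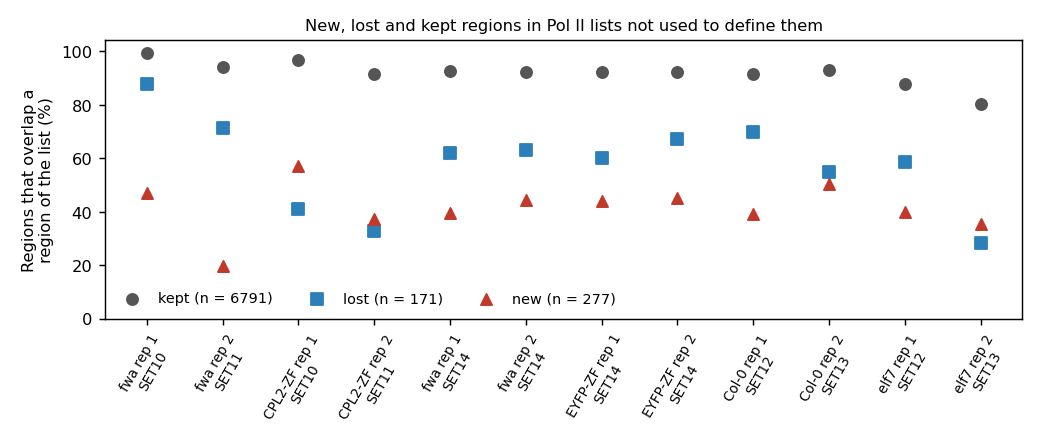
Share of the kept, lost and new regions of ELF7-ZF that overlap a region, in percent, in 12 Pol II lists that were not used to define them. Lost regions lie above new ones in all 4 *fwa* lists and below them in both CPL2-ZF lists and in replicate 2 of *elf7*, and kept regions lie at 80.2% or more throughout.

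Histone marks were listed in other leaf libraries of both lines. H3K36me3 covered the summit of 75.0% and 68.8% of the 32 new regions near FLAG summits in the 2 ELF7-ZF lists, and of 68.8% and 62.5% in the *fwa* lists. For the 377 kept regions near FLAG summits it was 57.0% and 49.1% in ELF7-ZF and 48.8% and 43.8% in *fwa*. Over the other 245 new regions it was 47.8% and 39.2% against 41.6% and 38.4%, over lost regions 28.1% and 33.9% against 31.6% and 32.7%, and over all kept regions 50.6% and 42.9% against 46.6% and 41.5%. H3K4me3 covered the summit of 33.9% and 30.3% of all new regions in ELF7-ZF and of 32.9% and 33.6% in *fwa*, and of 47.1% and 41.1% against 47.4% and 42.4% of the kept ones. H3K27me3 covered the summit of 14.8% and 10.5% of the new regions in ELF7-ZF and of 15.2% and 15.5% in *fwa*. For lost regions it was 19.9% and 15.2% against 17.5% and 16.4%, and for kept ones 5.17% and 5.76% against 5.40% and 6.55%. ELF7 with a FLAG tag and no ZF, mapped in floral tissue of a line in the *elf7* mutant background, was listed over 40.4% and 20.2% of the new, 53.2% and 43.9% of the lost and 58.3% and 41.6% of the kept regions.

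Few marks differed between the lines at new regions. H3K36me2 was in both ELF7-ZF lists and in no *fwa* list at 7 of 277, against 0.833% of all regions of ELF7-ZF replicate 1, and the reverse held at 1, against 1.05%. The 7 were at *AGL8*, *DAG2*, *FBH3*, AT1G66480, AT1G71520, AT3G10320 and AT5G57480. *FBH3* encodes a bHLH factor that acts on the flowering gene *CO*, and *DAG2* a Dof factor of seed germination. H3K36me3 gave 1 region in each direction, against 1.54% and 0.154%. H3K27me3 was in both *fwa* lists alone at 3, against 0.148%, at AT3G28220, *RK1* and *TPPH*, and in both ELF7-ZF lists alone at 0, against 0.0247%. New regions carried H3K27me3 more often than kept ones in both lines, which limits the comparison with these shares. H3K4me3 was in both ELF7-ZF lists alone at 0, against 0.105%, and in both *fwa* lists alone at 1, against 0.179%. These counts were small, carry no test and rest on 2 libraries a line.

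At *FWA* itself, H3K4me3 regions at the gene start were listed in all 4 libraries, with folds of 5.67 and 8.56 in ELF7-ZF and 8.03 and 11.8 in *fwa*. H3K36me3 regions over the gene were likewise in all 4, with folds of 3.53 and 2.56 in ELF7-ZF and 2.59 and 4.88 in *fwa*. Folds depend on the library they were listed for, so only the presence of these marks is compared between lines.

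Presence over 69 genes of chosen lists changed the same way in both replicates at 1 gene. Of the 69, 27 had a region in all 4 lists, 22 in none and 19 in a mixed pattern, and of all 27432 protein-coding genes 99 (0.361%) had a region in both ELF7-ZF lists alone and 97 (0.354%) in both *fwa* lists alone. The gene gained was *LUX*, also called *PCL1*, which encodes a factor of the evening complex of the circadian clock. Its new region had folds of 3.55 and 2.32, with summits 700 bp and 712 bp after the gene start. The same place was in no other *fwa* list, but in both lists of Col-0, *elf7*, HD2A-ZF and CPL2-ZF and in 1 of EYFP-ZF. Over the whole gene, by which *LUX* was counted as gained, 2 of the 4 other *fwa* lists had a region. Of the 9 circadian clock genes, 4 had a region in all 4 lists and 3 in none.

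Of 16 flowering time genes, 4 had a region in all 4 lists, 8 in none and 4 in a mixed pattern, *FUL* among the last because *fwa* of SET9 had a region elsewhere in it. Of 6 genes of the PAF1 complex, 5 had a region in either ELF7-ZF list, 2 in *fwa* of SET8 and 5 in *fwa* of SET9. Elongation factor genes gave 5 and 6 of 7 in ELF7-ZF and 3 and 7 in *fwa*, and Pol II subunit genes 2 and 5 of 5 in both lines. Genes that respond to heat and wounding gave 9 and 10 of 13 in ELF7-ZF and 9 and 11 in *fwa*. Among the markers of leaf, 3 of 4 had a region in all 4 lists and *LHCB1.1* in none, and the 4 floral and 2 seed markers had none in any list. Of the 3 root markers, 0 and 1 had a region in ELF7-ZF and 1 and 2 in *fwa*.

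Over whole lists, the ELF7-ZF libraries were not told from *fwa*. The share of regions within 250 bp of a FLAG summit was 5.92% and 5.34% in ELF7-ZF and 4.69 ± 0.646% (SD, n = 6) in *fwa*, where the highest library, *fwa* of SET9, had 5.54% (exact permutation test, p = 0.179, adjusted p = 0.893 over 5 measures). Against the 12 other libraries of the *fwa* background, at 4.47 ± 0.569%, p was 0.0220 and the adjusted p 0.110 (exact permutation test). The share of FLAG summits inside a Pol II region was 16.3% and 16.9% against 15.3 ± 4.32% in *fwa*, and the median width 364 and 414 bp against 415 ± 94.5 bp. The shares at gene starts (10.4% and 34.0% against 23.8 ± 8.71%) and gene ends (18.4% and 33.1% against 27.3 ± 3.93%) differed more between the 2 ELF7-ZF libraries than between the means of the lines. None of the last 4 measures passed, with an exact permutation p between 0.750 and 0.893.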

How the data were processed

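Only deposited peak lists were used, 1 per library. The authors trimmed reads, aligned them to TAIR10 with Bowtie2 (2.1.0), with 1 mapping site per read and no mismatch, dropped duplicate reads with SAMtools (1.9) and made the lists with MACS2 (2.1.1). The deposited fold is a ratio, the summit signal over its local background, and the deposited −log10 q is that of the caller. The control of the Pol II call is not given in the sources used here. FLAG TRB1-ZF was called against *fwa*, and FLAG peaks often seen in Col-0 were removed by the authors. Read depth is unknown. The number of regions per list, which does not measure depth, was between 10611 and 19505 for Pol II.

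Regions on the 5 nuclear chromosomes were compared with python (3.11.15), pandas (2.3.3), numpy (2.4.6), matplotlib (3.10.9) and scipy (1.17.1), and the overlap step was tested on simulated lists. The 5 bases at 103 of 103 cytosine entries of the *FWA* bisulfite amplicons equalled the RefSeq TAIR10.1 sequence, and 0 regions lay beyond a chromosome end. Named genes were *FWA*, AT3G13470, the 10 new regions within 250 bp of a 4-fold FLAG summit, the 10 new ones without a 2-fold FLAG summit within 1000 bp and the 10 lost ones, each with the highest lower fold of both replicates, and listed genes that changed alike in both. The regions, gene lists and measures were chosen with earlier results of these data known. Library measures were compared by exact permutation over libraries, two-sided, with Benjamini-Hochberg adjustment over 5 measures, or over the 4 comparisons at sites with and without the word. Alternatives were the shared distance, a −log10 q minimum, equal list length, window sizes, FLAG fold minimum, pairing by SET and leaving out a replicate. RNA and bisulfite data were not analysed here.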

Additional observations from a re-analysis of the deposited data

How the results depend on the processing

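The counts depended on how sharing was defined and on asking for both SETs. Counting regions within 500 bp as shared left 146 new regions, a −log10 q of at least 10 left 16 new and 7 lost, and asking new regions to be absent from HD2A-ZF too left 149. Asking also, after the data had been seen, for absence from the 4 other *fwa* lists left 108 new regions, and for presence in all 4 left 73 lost. With a single SET the counts were 1856 to 8131 for new, 1724 to 2879 for lost and 8075 to 16350 for kept regions. The pairing follows the labels, in which each ELF7-ZF library shares its SET with a *fwa* library. Without the replicate block, 243 regions were new and 161 lost.

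The share of new regions near a FLAG summit was 7.22% within 100 bp, 17.3% within 1000 bp, 22.7% with FLAG summits from 2-fold, 24.5% with all of them and 5.06 to 6.60% in a single SET. For lost regions it was 5.26% within 500 bp, 12.9% within 1000 bp, 8.77% from 2-fold, 11.7% with all FLAG summits, 6.36% at equal list length and 3.89 to 6.84% in a single SET. Kept regions stood at 3.03% within 100 bp, 8.64% within 500 bp, 13.5% within 1000 bp, 18% from 2-fold, 20.7% with all FLAG summits, 5.74% at equal list length and 5.23 to 5.38% in a single SET, so new regions exceeded them by less at the wider settings and fell below them in SET9 alone, and lost regions exceeded them at equal list length and in SET9 alone. New regions at gene starts were 23.8% with 500 bp windows and 8.57 to 22.5% in a single SET, and at gene ends 6.86% with 250 bp windows and 13.6 to 17%. Lost regions at gene starts were 29.8% with 500 bp windows, 11.7% with all annotated genes and 14.2 to 39.9% in a single SET, against 33.3%, 19.4% and 12.2 to 35.3% of kept regions, and at gene ends 25.7% with 500 bp windows.

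The width difference between ELF7-ZF and *fwa* changed sign from -26.4 to 26.2 bp against the 2 *fwa* libraries of SET8 and SET9, and was 26.2 bp as the mean difference within SETs, the replicate block. Leaving out a replicate moved the difference at gene starts between -10.7 and 7.91 percentage points and at gene ends between -7.79 and 4.89. The share of word sites with Pol II differed by 4.17 percentage points within 100 bp, a distance chosen after the data had been seen, and by 3.38 within 250 bp (adjusted p = 0.143 for both, exact permutation test). The causes were not tested. Read depth, which is unknown, limits any statement that a region is absent.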
